A study of Mus musculus with 18 samples.

Results

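The libraries compared were 3 of CD4-CD8- type 2 conventional dendritic cells (cDC2) and 3 of CD8+ type 1 conventional dendritic cells (cDC1), all from spleens of ADAM10-deficient (KO) C57BL/6 mice. They are 6 of the 18 libraries of the series, taken by genotype and sorted population as the labels give them, and measured by poly(A) RNA sequencing. The same pair of populations from wild-type (WT) C57BL/6 mice, 3 libraries each, gave the comparison without the deficiency. Living cells with CD11c and MHC class II on their surface were sorted by CD8 and CD4. The cells called cDC2 here are those with neither, and the part of cDC1 among them was not tested. How ADAM10 was removed, in which cells, and the age and number of the mice are not given in the sources used here. Whether the 3 libraries of a group came from separate mice is not stated either, so the p-values may rest on technical spread alone.

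Conventional dendritic cells of the spleen fall into 2 lineages. The cDC1, which carry CD8 in the spleen, depend on the transcription factors IRF8 and BATF3, take up dead cells through receptors such as CLEC9A and are known for presenting their antigens to CD8 T cells. The cDC2 depend on IRF4, carry SIRPA and CD11b, and are known for presenting antigen to CD4 T cells. Some splenic cDC2 need signals through NOTCH2 and carry ESAM and, often, CD4, while ESAM-low cDC2 share many genes with monocytes. Ligand-bound NOTCH receptors are cut by ADAM10, a protease of the cell membrane, before gamma-secretase frees their intracellular part.

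The deposited table holds estimated counts per transcript, here summed per gene. The KO CD4-CD8- libraries held 13569089 to 17106179 estimated counts and the KO CD8+ libraries 15573482 to 16550698, and the WT libraries 12358884 to 14991215. Mitochondrial genes took 1.71 to 2.58% of the counts in KO CD4-CD8- and 1.80 to 2.05% in KO CD8+ libraries. Levels are given as CPM, the counts relative to a common library size after scaling by edgeR's TMM method, in the order of the replicate numbers. Differences are log2 fold changes of CD4-CD8- against CD8+ libraries with their standard error, and a gene was called at a Benjamini-Hochberg adjusted p below 0.05 in edgeR's quasi-likelihood test over 13369 genes. In libraries made from many cells, fewer cells of a type and less RNA per cell cannot be told apart.

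Adam10 (chromosome 9, 70678997 to 70780229, GRCm38) was measured first, because its level checks the labels. It stood at 47.5, 41.7 and 44.6 CPM in KO CD4-CD8- and at 28.7, 31 and 36.4 CPM in KO CD8+ libraries, against 90.9, 88.3 and 138 CPM in WT CD4-CD8- and 57, 58.3 and 99 CPM in WT CD8+ libraries. Every KO library lay below every WT library of the same population. The log2 fold change of KO against WT was -1.25 ± 0.22 in CD4-CD8- (edgeR adjusted p = 0.000547) and -1.15 ± 0.23 in CD8+ cells (adjusted p = 0.00186), so part of the RNA remained in both. Counts over the whole gene do not show whether a deleted exon is missing. Between the 2 KO populations all CD4-CD8- libraries lay above all CD8+ libraries, but the difference of 0.48 ± 0.23 was not called (adjusted p = 0.0973). With the replicate number as a block in the fit it was called (0.50, adjusted p = 0.00954).

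The 2 KO populations differed in 6242 of 13369 genes tested, or 46.7%. Of these, 3259 genes (24.4% of those tested) were higher in CD4-CD8- cells and 2983 genes (22.3%) were higher in CD8+ cells. Most of the large differences were on the cDC2 side: 1687 genes were called at least 2-fold higher in CD4-CD8- libraries and 910 at least 2-fold lower, and 554 against 99 passed 8-fold. Counted without a model, 7039 genes (52.7%) had all 3 CD4-CD8- libraries above or all 3 below the CD8+ libraries. Of the called genes, 52.2% were higher in CD4-CD8- cells, but on the authors' TPM values with a pseudocount of 1 it was 64.4% of 3885, with the median of all genes shifted to 0.084 on the log2 scale. After scaling those TPM values by TMM it was 53.1% of 4158 genes.

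**Figure D1:**
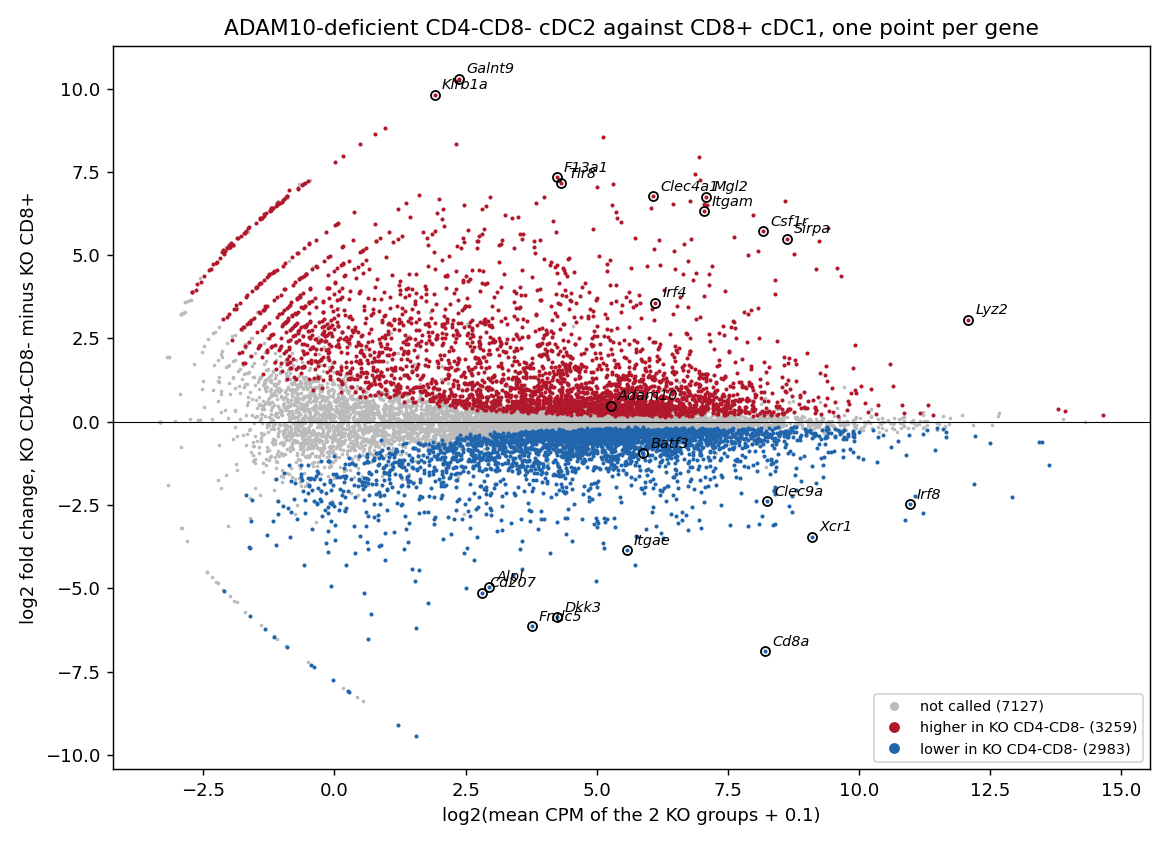
Each point is a gene, with the log2 of its mean CPM over the 2 KO groups (plus 0.1) on the horizontal axis and the log2 fold change of KO CD4-CD8- against KO CD8+ cells on the vertical axis. Red points (3259) were called higher and blue points (2983) lower in CD4-CD8- cells, and among highly expressed genes Sirpa (circled) lies at 5.50 and Cd8a (circled) at -6.88.

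The sorting markers and the lineage genes of the cDC1 separated the libraries in the direction of their labels. Of 24 cDC1 hallmark genes tested, 23 were lower in KO CD4-CD8- cells and 1, Cxcl9, did not pass. Their median log2 fold change was -2.71, beside -0.0047 over all genes tested. Cd8a, the chain of CD8 used in the sort, stood at 5.87, 4.83 and 4.14 CPM in CD4-CD8- and at 667, 521 and 578 CPM in CD8+ libraries. Since CD8 was gated, its difference of -6.88 ± 0.18 (edgeR adjusted p = 2.02e-13) is a check of the sort and no finding. Cd4, the other gated marker, was low in both, at 3.02, 4.37 and 4.60 CPM and 2.22, 5.37 and 5.26 CPM, with overlapping groups.

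Xcr1, the receptor through which cDC1 follow XCL1, was at 69.3, 134 and 75.3 CPM in CD4-CD8- and at 1016, 954 and 1063 CPM in CD8+ libraries. Its log2 fold change was -3.45 ± 0.25 (adjusted p = 7.18e-09). Irf8, the transcription factor that cDC1 need, was at 517, 742 and 559 CPM against 3442, 3509.9 and 3213 CPM, a difference of -2.48 ± 0.15 (adjusted p = 1.14e-09). Every CD8+ library was far above every CD4-CD8- library for both genes. Batf3, the partner of IRF8 in cDC1, differed less, at 37, 48.1 and 36.7 CPM against 92.4, 83.9 and 57.1 CPM (-0.94 ± 0.17, adjusted p = 0.000229), also with no overlap. Clec9a, the receptor for actin exposed on dead cells, was at 77.7, 114 and 101 CPM and 487, 499 and 544 CPM, so CD4-CD8- libraries held it at well above 0. Id2, a repressor of E proteins in cDC1, was at 135, 185 and 119 CPM and 699, 754 and 623 CPM (-2.24 ± 0.14). Ly75, which encodes the endocytic receptor DEC-205, and Cd24a differed by -2.72 ± 0.17 and -2.54 ± 0.18. Among KO CD4-CD8- libraries, the second was the highest for Xcr1, Irf8, Batf3, Clec9a and Id2. Mean TPM in KO CD4+, KO CD4-CD8- and KO CD8+ cells was 0.823, 12.7 and 128 for Xcr1 and 34.2, 102 and 502 for Irf8. Clec9a, Id2, Ly75 and Cd24a were also lower in KO CD4+ than in KO CD4-CD8- cells, but Batf3 was not (25.9 and 22.8 TPM). The part of cDC1 in the CD4-CD8- libraries was not tested.

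Itgae, the CD103 integrin chain of a part of the cDC1, varied among libraries of 1 group. It was at 180.4, 43.2 and 43.1 CPM in KO CD8+ libraries, so the first stood far above the other 2, and at 12.2, 3.84 and 1.84 CPM in KO CD4-CD8- libraries, where the first was again the highest. The log2 fold change was -3.85 ± 0.60 (adjusted p = 5.73e-05). Cxcl9, a chemokine induced by interferon-gamma and the only gene of the list that did not pass, also had a high first KO CD4-CD8- library, at 222, 45.7 and 47.7 CPM against 277, 161 and 174 CPM in CD8+ libraries (-0.95 ± 0.60, adjusted p = 0.211).

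On the cDC2 side, 19 of 28 hallmark genes tested were higher in KO CD4-CD8- cells, 1 was lower and 8 did not pass, with a median log2 fold change of 3.20. Sirpa, the inhibitory receptor that binds CD47, was at 816, 717 and 779 CPM in CD4-CD8- and at 17.7, 11.2 and 22.3 CPM in CD8+ libraries (5.50 ± 0.21, adjusted p = 6.33e-12). Itgam, the CD11b chain, was at 278, 233 and 272 CPM against 3.13, 1.88 and 4.68 CPM (6.33 ± 0.23, adjusted p = 3.72e-12). For both genes the lowest CD4-CD8- library stood far above the highest CD8+ library. Irf4, the transcription factor that cDC2 rely on, was at 118, 128 and 135 CPM against 8.21, 10.1 and 13.8 CPM (3.57 ± 0.19, adjusted p = 2.32e-10). Cd209a, a C-type lectin related to human DC-SIGN, was at 1194, 1338 and 1488 CPM against 17.8, 15.8 and 38.2 CPM (5.81 ± 0.30, adjusted p = 1.85e-10).

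The 8 cDC2 genes that did not pass were Cd4, Esam, Clec12a, Klf2, Rbpj, Epcam, Cd5 and S1pr1, and the 1 that was lower was Notch2. Esam, the adhesion molecule of NOTCH2-dependent cDC2, was at 1.54, 1.76 and 1.23 CPM in KO CD4-CD8- and at 1.37, 2.37 and 2.21 CPM in KO CD8+ libraries, with overlapping groups (-0.38 ± 0.35, adjusted p = 0.399). On TPM with a pseudocount of 0.1 it was called lower in CD4-CD8- cells (-2.79, limma adjusted p = 0.0282), with means of 0.392 ± 0.0692 against 3.61 ± 1.71 TPM (SD, n = 3). In WT cells it was at 24.3, 32 and 33.4 CPM in CD4-CD8- and 9.50, 8.30 and 9.29 CPM in CD8+ libraries, a called difference (1.73 ± 0.23, adjusted p = 1.58e-05). Of 10 genes listed for ESAM-high cDC2, 4 were higher in KO CD4-CD8- cells, 1 was lower and 5 did not pass, with a median of 0.80, beside 7 higher, 1 lower and a median of 3.04 in WT. Their summed level was 36.1 to 54.9 CPM in KO CD4-CD8- and 508.7 to 516.0 CPM in WT CD4-CD8- libraries. Of these 10 genes 50% were called in KO, beside 46.7% of all genes tested. Of 16 genes listed for ESAM-low cDC2, 15 were higher in KO CD4-CD8- cells, with a median of 5.48, beside 14 higher, 1 lower and a median of 2.32 in WT. Their summed level was 15151 to 18784 CPM in KO CD4-CD8-, 1898 to 2230 CPM in KO CD8+ and 4684 to 5607 CPM in WT CD4-CD8- libraries.

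**Figure D2:**
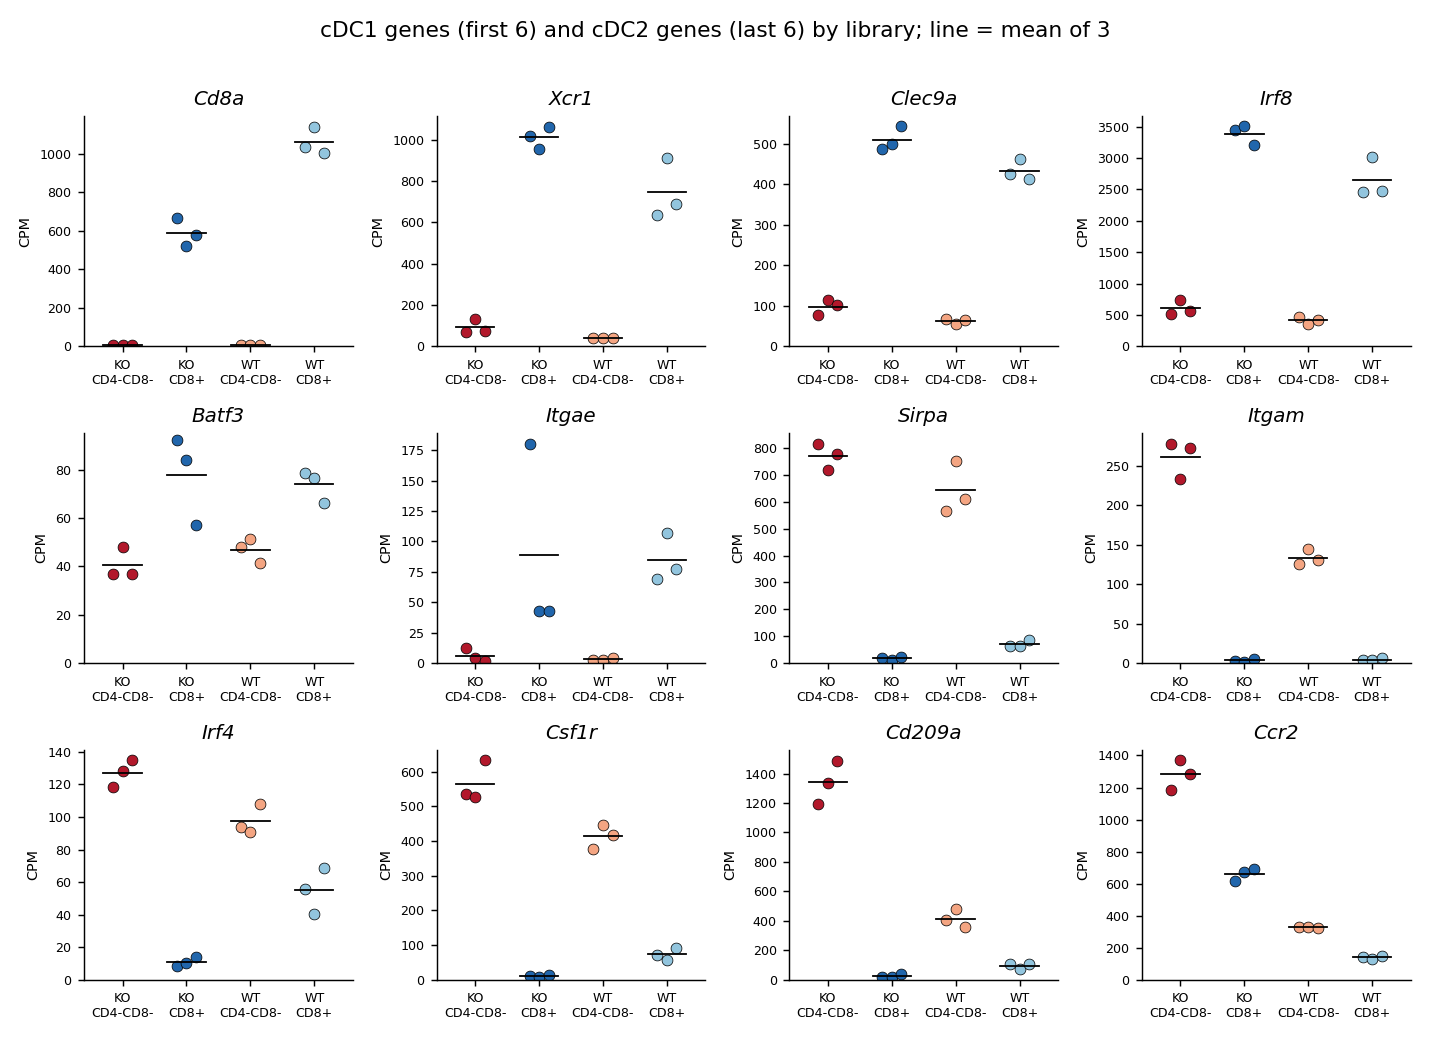
CPM of 6 cDC1 genes and 6 cDC2 genes in each of the 3 libraries of 4 groups, KO and WT, each panel with a linear axis from 0 and a line at the group mean. Within each genotype the group mean is higher in CD8+ cells for the first 6 genes and in CD4-CD8- cells for the last 6. Across genotypes, Ccr2 is higher in KO CD8+ than in WT CD4-CD8- libraries. Irf4, Sirpa and Csf1r are lower in KO CD8+ than in WT CD8+ libraries.

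IRF8 and IRF4 bind DNA together with PU.1 at a composite site known as EICE (searched as GGAA and GAAA with 2 bases between), and interferon regulatory factors alone bind interferon response elements (ISRE, searched as GAAA and GAAA with 2 bases between). PU.1 alone binds sites with the core GAGGAA, while RBPJ, which cut NOTCH joins on DNA, binds sites with TGGGAA. The letters GGAA are shared by EICE and both of these cores, so their matches can overlap. These 4 motifs were searched on both strands of the promoter windows of RefSeq (GRCm38.p6, 250 bases before to 50 after each start), which 9756 of the tested genes had. EICE letters stood in 3.01% of all these genes, in 3.54% of the genes called higher and in 2.40% of those called lower in KO CD4-CD8- cells. ISRE letters stood in 4.12%, 4.90% and 3.95%, and in 8.33% of 396 genes called at least 8-fold higher and 5.71% of 70 called at least 8-fold lower. PU.1 letters stood in 30.9% of all these genes, in 34.8% of the genes called higher and 29.7% of those called lower, and in 43.4% and 48.6% of those past 8-fold higher and lower. RBPJ letters stood in 26.3%, 27.2%, 25.8%, 33.6% and 31.4% of the same groups. Of the hallmark genes with a window, 13 of 20 for cDC2 and 5 of 19 for cDC1 held PU.1 letters, and 8 of 20 and 5 of 19 held RBPJ letters. Such a match describes the letters only and says nothing of binding. Of the cDC1 and cDC2 hallmark genes, 4 had an EICE or ISRE match, and 3 of these windows are shown because they carry the letters of an IRF site beside genes at the 2 ends of the comparison. Capitals mark the EICE or ISRE match, written on the strand of the gene, where the reverse complement, TTTC and TTCC with 2 bases between, also counts as EICE. The windows run from 250 bases before to 20 after the start.
Cd209a (chr8:3748965-3749234, minus strand, high in CD4-CD8- cells): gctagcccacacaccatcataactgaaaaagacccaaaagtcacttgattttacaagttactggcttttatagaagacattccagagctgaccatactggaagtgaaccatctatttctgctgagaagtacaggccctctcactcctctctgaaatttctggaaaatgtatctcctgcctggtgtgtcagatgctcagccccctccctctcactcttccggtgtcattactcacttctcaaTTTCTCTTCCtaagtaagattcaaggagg
Cd8a (chr6:71373177-71373446, plus strand, high in CD8+ cells): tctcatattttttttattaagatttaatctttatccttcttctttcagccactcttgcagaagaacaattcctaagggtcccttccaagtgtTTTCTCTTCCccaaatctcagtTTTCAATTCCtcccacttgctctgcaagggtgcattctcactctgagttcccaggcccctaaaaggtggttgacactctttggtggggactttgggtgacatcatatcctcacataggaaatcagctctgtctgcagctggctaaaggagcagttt
Tlr11 (chr14:50357664-50357933, plus strand, high in CD8+ cells): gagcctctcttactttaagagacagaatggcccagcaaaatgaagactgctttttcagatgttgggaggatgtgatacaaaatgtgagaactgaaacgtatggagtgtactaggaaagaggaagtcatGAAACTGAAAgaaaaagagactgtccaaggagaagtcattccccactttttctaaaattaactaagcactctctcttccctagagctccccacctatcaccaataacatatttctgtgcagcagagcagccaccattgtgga
The match in Cd209a spans positions -9 to 1 from the start, those in Cd8a begin at -158 and -136, and the ISRE match in Tlr11 begins at -122. EICE letters thus stood at 1 gene that was high in CD4-CD8- cells and 1 that was high in CD8+ cells. The other gene with such a match, the cDC1 gene Ifi205, had ISRE letters. Tlr11, a sensor of protozoan profilin, was at 98.2, 92.2 and 63.5 CPM in KO CD4-CD8- and 481, 400.1 and 436 CPM in KO CD8+ libraries (-2.37 ± 0.26, adjusted p = 8.99e-07).

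The 15 largest called differences toward CD4-CD8- cells, among genes of at least 5 CPM, were led by genes that KO CD8+ libraries lacked. Galnt9, a transferase that starts O-linked glycans, was at 8.07, 12 and 10.7 CPM in CD4-CD8- libraries and at 0 in all 3 CD8+ libraries, at least 151-fold higher against a floor of 3 counts over the group. Klrb1a, a lectin-like receptor of the NKR-P1 family best known from NK cells, was at 4.69, 8.29 and 9.04 CPM against 0, at least 107-fold higher. The model Gm44511 was at 11.7, 8.44 and 9.27 CPM against 0, at least 150-fold higher, and it overlaps the NK receptor genes Klrb1b and Klrb1c on its own strand, so its reads are uncertain. Sirpb1a, Sirpb1b and Sirpb1c, which encode activating receptors of the SIRP-beta family, were also among the 15 largest, Sirpb1a at 257, 246 and 244 CPM against 1.89, 0.767 and 2.21 CPM. They are near-identical copies on chromosome 3, so how reads divide among them is uncertain. Tlr8, an endosomal sensor of RNA breakdown products, was at 36.6, 40.7 and 40.5 CPM against 0.261, 0.209 and 0.325 CPM (7.16 ± 0.28, adjusted p = 9.99e-12).

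Several genes better known from monocytes and macrophages stood in the same group, beside Mgl2 and Clec4a1, which are in the cDC2 lists. Fcrls, a scavenger receptor-like protein, was at 112, 292 and 329 CPM in KO CD4-CD8- and 0.326, 0.349 and 2.21 CPM in KO CD8+ libraries, and at a mean of 0.266 ± 0.308 CPM (SD, n = 3) in WT CD4-CD8- cells. It was thus near 0 in WT cells of the same gate and high in all 3 KO libraries (KO against WT 9.71 ± 0.65, adjusted p = 3.51e-08). The KO subset difference minus the WT one was not called for Fcrls (7.23 ± 2.83, edgeR adjusted p = 0.111). KO CD4+ cells of the series held Fcrls too, at a mean of 237 ± 75.2 CPM (SD, n = 3). Fn1, fibronectin, was at 122, 251 and 329 CPM against 0.913, 0.767 and 2.34 CPM (7.43 ± 0.49, adjusted p = 2.92e-09). F13a1, the coagulation factor XIII A chain, was at 28.1, 42.1 and 41.5 CPM against 0.130, 0.0697 and 0.455 CPM (7.34 ± 0.47). In both the first CD4-CD8- library was the lowest of the 3. Mgl2, the lectin CD301b, was at 304, 236 and 267 CPM against 3.72, 1.19 and 2.47 CPM (6.76 ± 0.32). Clec4a1 was at 135, 129 and 137 CPM against 1.17, 0.767 and 1.69 CPM (6.77 ± 0.20). Ace, the angiotensin-converting enzyme, was at 38.4, 58.9 and 92.1 CPM against 0.261, 0.0697 and 1.04 CPM (7.06 ± 0.55). Unlike Fcrls, Ace was lower in KO than in WT CD4-CD8- cells, whose mean was 178 ± 49.6 CPM (SD, n = 3). KO against WT was -1.50 ± 0.32 (edgeR adjusted p = 0.00217). Tarm1 and Fam20c had 1 and 2 counts over the 3 CD8+ libraries, with ratios of 448 (95% counting interval 82.2 to 18080) and 131 (35.9 to 1071).

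Among the genes higher in CD8+ cells, Fndc5, the precursor of irisin, was at 49.4, 14.6 and 15.5 CPM in CD8+ and 0.593, 0.307 and 0.153 CPM in CD4-CD8- libraries (-6.13 ± 0.57, adjusted p = 1.61e-07). Its first CD8+ library stood above the other 2. Dkk3, a secreted member of the Dickkopf family, was at 42.6, 21.5 and 47.1 CPM against 0.534, 0.537 and 0.843 CPM (-5.86 ± 0.46, adjusted p = 7.7e-08). Cd207, the lectin langerin, was at 6.85, 13.7 and 19.9 CPM against 0.178, 0.384 and 0.613 CPM (-5.13 ± 0.45). Alpl, tissue-nonspecific alkaline phosphatase, was at 11.8, 15.2 and 17.3 CPM against 0.356, 0.767 and 0.307 CPM (-4.95 ± 0.40). Ttc39a was at 108, 97.7 and 95.3 CPM against 3.14, 6.37 and 5.90 CPM (-4.31 ± 0.26). Serpine2, a secreted serine protease inhibitor, ranged from 4.82 to 20.9 CPM in CD8+ libraries and stayed below 1 CPM in all CD4-CD8- libraries (-4.15 ± 0.45). Necab1, Naalad2, Homer2, Dgkk, Esyt3 and Mab21l3 were also among the 15 largest, with log2 fold changes from -3.94 to -5.44. Trabd2b had 3 counts over the CD4-CD8- libraries, a ratio of 94.8 (95% counting interval 27.7 to 393). Gm42927, a processed pseudogene that overlaps another gene on its strand, was at 6.98, 4.74 and 5.26 CPM against 0, and its call (adjusted p = 0.018) was lost on TPM with a pseudocount of 1 (-0.80, limma adjusted p = 0.0657).

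Of 40 lineage transcription factors, 22 were higher in KO CD4-CD8- cells, 8 were lower and 10 did not pass, with a median of 0.54. Zeb2, a repressor that opposes the cDC1 fate, was at 120.4, 148 and 157 CPM against 3.72, 3.97 and 8.44 CPM (4.71 ± 0.27, adjusted p = 4.74e-10). Spib, an ETS factor of B cells and plasmacytoid dendritic cells (pDC), was at 296, 353 and 328 CPM against 21.6, 13.2 and 29.8 CPM (3.92 ± 0.21, adjusted p = 2.84e-10). Klf4, needed by cDC2 that prime type 2 responses, was at 146, 183 and 203 CPM against 28.6, 47.5 and 45.5 CPM (2.13 ± 0.25). Prdm1, Bhlhe40 and Cebpb were higher by 3.83, 3.34 and 3.08. The 8 that were lower were Irf8, Id2, Mycl, Zfp366, Ahr, Batf3, Zeb1 and Zbtb46, the last a factor of all cDC. Of 15 genes shared by cDC, 3 were higher, 8 lower and 4 not passed. Zbtb46 differed by -0.59 ± 0.074 and Flt3, the receptor of the cDC growth factor, by -0.49 ± 0.067 (514, 558 and 559 CPM against 739, 775 and 777 CPM). Itgax, the CD11c chain used in the sort, was higher in CD4-CD8- cells by 1.62 ± 0.10.

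The receptors for microbial products split by subset. Of 19 Toll-like receptors and adaptors, 8 were higher in KO CD4-CD8- cells, 5 lower and 6 not passed. Tlr8, Tlr1, Tlr5, Tlr7, Tlr2 and Tlr6 were higher, as were the adaptor gene Ticam2 and the co-receptor gene Cd14. Tlr1 was at 70.5, 56.5 and 50.6 CPM against 4.56, 5.30 and 3.64 CPM (3.72 ± 0.19). Tlr3, the sensor of double-stranded RNA, went the other way, at 36.7, 65.9 and 41.1 CPM against 408, 396 and 458 CPM (-3.14 ± 0.18, adjusted p = 7.1e-10), with Tlr11, Tlr12, Tlr13 and the trafficking chaperone gene Unc93b1. On TPM with a pseudocount of 1, 3 of these 5 were called lower. Of 17 cytosolic sensors, 10 were higher and 2, Ifi205 and Nlrp1b, lower. Ddx58, the RNA sensor RIG-I, was at 41.5, 40.3 and 36.9 CPM against 2.09, 2.51 and 4.03 CPM (3.78 ± 0.16). Ifi205 was at 107, 138 and 92.7 CPM against 770.1, 703 and 726 CPM (-2.70 ± 0.19).

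C-type lectins were mostly cDC2 genes: 21 of 28 were higher in KO CD4-CD8- cells, 5 lower and 2 not passed, with a median of 3.14. Clec10a, the lectin CD301a, was at 518, 473 and 502 CPM against 8.21, 4.32 and 7.47 CPM (6.22 ± 0.27, adjusted p = 2.8e-11). Clec4a3 was at 132, 128 and 126 CPM against 1.96, 0.418 and 2.08 CPM (6.41 ± 0.28). Clec7a, the beta-glucan receptor dectin-1, differed by 5.12 ± 0.27. The 5 that were lower were Cd207, Clec4b2, Ly75, Clec9a and Clec1a. All but Fcgrt of 8 Fc receptor genes were higher in CD4-CD8- cells (7 of 8, median 4.17), with Fcgr3 at 80.9, 80.8 and 83.8 CPM against 0.913, 0.558 and 1.62 CPM (6.29 ± 0.31). Fcer2a, the low-affinity IgE receptor CD23, was at 15.2, 21.4 and 24.9 CPM against 0.261, 0.0697 and 0.520 CPM (6.11 ± 0.39).

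Integrins and chemotactic receptors also divided. Of 17 integrin genes, 9 were higher and 6 lower, the latter Itgae, Itga1, Itga6, Itgal, Itgav and Itgb7. Itgb3, the integrin beta 3 chain, was at 36, 43 and 41.6 CPM against 3.78, 3.21 and 4.61 CPM (3.37 ± 0.19). Of 25 chemotactic receptors, 16 were higher in CD4-CD8- cells, 3 lower (Xcr1, Cxcr3 and Ccr9) and 6 not passed, with a median of 2.04. Ltb4r1, a receptor of leukotriene B4, was at 70.5, 103 and 85.8 CPM against 0.913, 1.46 and 1.62 CPM (6.01 ± 0.21). Cx3cr1, the fractalkine receptor, was at 327, 391 and 432 CPM against 7.89, 5.65 and 11.2 CPM (5.53 ± 0.24). Ccr2, the receptor that brings monocytes out of bone marrow, was abundant in both, at 1186, 1374 and 1287 CPM against 615, 671 and 689 CPM (0.96 ± 0.10). Its WT means were 327 ± 5.37 CPM in CD4-CD8- and 141 ± 9.26 CPM in CD8+ cells (SD, n = 3). Cxcr3 went the other way, at 23, 32.8 and 22 CPM against 199.6, 171 and 172 CPM (-2.80 ± 0.20, adjusted p = 7.46e-09). Ccr7, which guides dendritic cells into lymphatics, was at 243, 394 and 339 CPM against 165, 138 and 154 CPM (1.09 ± 0.22).

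Of 17 chemokine genes, 9 were higher in KO CD4-CD8- cells and 8 did not pass, with a median of 1.28. Calls in this list were thus not much more frequent than over all genes tested, at 52.9% beside 46.7%. Ccl9 was at 618, 832 and 841 CPM against 6.26, 6.83 and 10.1 CPM (6.62 ± 0.29, adjusted p = 2.68e-11). Ccl6 was at 503, 702 and 720.3 CPM against 19.8, 40.2 and 41.1 CPM (4.25 ± 0.25). Both are chemokines of myeloid cells. Among 20 cytokine genes, 10 were higher and 5 lower. Il1rn, the antagonist of interleukin 1, was at 46.2, 29.9 and 29.7 CPM against 0.456, 0.418 and 0.714 CPM (6.03 ± 0.30). Tnf was at 20.3, 34.4 and 47.4 CPM against 4.30, 4.25 and 2.73 CPM (3.17 ± 0.27). Osm, oncostatin M, was higher by 4.15 ± 0.37. The 5 that were lower were Il12b, Il18, Il15, Il16 and Ebi3. Il12b, the p40 chain shared by interleukins 12 and 23, was at 2.91, 5.14 and 2.68 CPM against 24.6, 30.6 and 25.2 CPM (-2.91 ± 0.29). The count of 5 was 3 without the first KO CD4-CD8- library.

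Of 24 costimulatory and checkpoint genes, 15 were higher in KO CD4-CD8- cells, 4 lower (Cd86, Havcr2, Btla and Slamf8) and 5 not passed. Cd86, a ligand of CD28, was at 51.1, 58.2 and 39.9 CPM against 260.4, 288 and 294 CPM (-2.50 ± 0.13), while Cd80, the other ligand of CD28, was higher by 0.62 ± 0.19. Havcr2, the checkpoint receptor TIM-3, was at 36.7, 47.9 and 42.2 CPM against 185, 240.1 and 243 CPM (-2.40 ± 0.13). Cd274 and Pdcd1lg2, which encode the PD-1 ligands PD-L1 and PD-L2, were higher by 2.58 ± 0.23 and 3.46 ± 0.34. Tnfsf9, the ligand of 4-1BB, was at 71.3, 106 and 105 CPM against 6.85, 10.1 and 8.77 CPM (3.46 ± 0.25). Cd40 was higher by 0.90 ± 0.17.

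The called genes of MHC class I presentation were mostly lower, and those of class II mostly higher, in KO CD4-CD8- cells. Of 23 genes of MHC class I presentation, 10 were lower in KO CD4-CD8- cells, 1, B2m, was higher and 12 did not pass, with a median of -0.20. Calls in this list were about as frequent as over all genes tested, at 47.8% beside 46.7%. Psmb9, an immunoproteasome subunit, was at 271, 199 and 184 CPM against 810.0, 599 and 578 CPM (-1.60 ± 0.21, adjusted p = 1.04e-05). Tap2, a subunit of the peptide pump, was at 222, 176 and 166 CPM against 489, 436 and 429 CPM (-1.26 ± 0.15). Cd1d1, which presents lipids to NKT cells, differed by -2.30 ± 0.17. Of 19 genes of MHC class II presentation, 11 were higher, 3 lower and 5 not passed, so 73.7% were called, with a median of 0.32. Ctsd, the protease cathepsin D, was at 165, 125 and 142 CPM against 22, 20.6 and 27.5 CPM (2.63 ± 0.14). H2-Eb2 was at 210.0, 188 and 148 CPM against 23.5, 35.4 and 29.9 CPM (2.62 ± 0.15). Cst3, a cysteine protease inhibitor, was the opposite, at 2362, 3260.0 and 2462 CPM against 15050.0, 13827 and 9515 CPM (-2.25 ± 0.16). H2-Aa was higher by 0.37 ± 0.067 and H2-Ab1, at 0.078 ± 0.10, did not pass (adjusted p = 0.576).

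Genes tied to cross-presentation did not share 1 direction, with 8 of 24 higher and 9 lower. Wdfy4, which cDC1 need to cross-present, was at 632, 856 and 752 CPM against 3059, 3232 and 4308 CPM (-2.24 ± 0.16). Rab7b and Cd36 were lower by the same measure (-3.07 ± 0.32 and -2.83 ± 0.26). Subunits of the NADPH oxidase were on both sides. Cybb, its catalytic chain, was at 1388, 1471 and 1570.1 CPM against 56.1, 40 and 83.9 CPM (4.62 ± 0.24, adjusted p = 2.18e-10), and Cyba and Ncf1 were higher and Ncf4 lower.

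Among the NOTCH genes, whose receptors ADAM10 cuts, calls were about as frequent as over all genes. Of 26 receptors, ligands and processing genes, 4 were higher in KO CD4-CD8- cells, 7 lower and 15 did not pass, so 42.3% were called, beside 46.7% of all genes tested. Notch4 was at 6.58, 11.6 and 9.35 CPM against 106, 98.2 and 90.5 CPM (-3.43 ± 0.22, adjusted p = 1.94e-09). The ligand gene Jag2 was at 2.08, 1.69 and 1.69 CPM against 35, 12.8 and 17.3 CPM (-3.56 ± 0.40), so both stood with the CD8+ cells. On TPM with a pseudocount of 1, 4 genes of the list were called lower. Notch2 was at 320.1, 352 and 380.4 CPM against 369, 404 and 510.3 CPM, an overlap, and its small difference (-0.29 ± 0.11, adjusted p = 0.0429) was lost without filtering (adjusted p = 0.0512), with the size factors of DESeq2 (0.0529) and without the third KO CD8+ library (-0.14, 0.27). It was also lost without the first or the second KO CD4-CD8- library (-0.22 and -0.29, adjusted p = 0.159 and 0.0852). Notch1 did not pass (0.22 ± 0.15) and its sign turned on TPM (-2.50 with a pseudocount of 1). Rbpj, the DNA-binding partner of cut NOTCH, was at -0.32 ± 0.13 (adjusted p = 0.0521) and was called with the replicate block (-0.33, adjusted p = 0.023). It was also called without the second or the third KO CD4-CD8- or the first KO CD8+ library (-0.39, -0.42 and -0.43).

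Of 9 NOTCH target genes, 4 were higher (2 on TPM with a pseudocount of 1), 1 lower and 4 not passed. So 55.6% were called, beside 46.7% of all genes tested. Dtx1, deltex 1, was at 5.93, 3.76 and 14.5 CPM in KO CD4-CD8- and 0.848, 0.0697 and 0.520 CPM in KO CD8+ libraries (4.01 ± 0.90, adjusted p = 0.00147), and at 249, 259 and 265 CPM and 5.37, 7.73 and 7.86 CPM in the same WT populations. Hes1, a repressor induced by NOTCH, was at 1.30, 2.30 and 3.22 CPM and 1.37, 2.16 and 1.62 CPM in KO, and at 27.5, 23.3 and 30.5 CPM and 19.1, 14.9 and 20.9 CPM in WT libraries. So both target genes were lower in every KO library than in any WT library of the same population. Summed over the 9 targets, levels were 454 to 471 CPM in KO and 1094 to 1342 CPM in WT CD4-CD8- libraries. In CD8+ libraries the sums of the genotypes overlapped, at 327 to 390 CPM in KO and 374 to 433 CPM in WT. Among 17 ADAM proteases, tetraspanins and inhibitors, 9 were higher, 5 lower and 3 not passed. Timp2, an inhibitor of metalloproteases, was at 33.4, 43.5 and 51.1 CPM against 3.06, 1.95 and 3.64 CPM (3.87 ± 0.28). Tspan5, a tetraspanin that carries ADAM10, was at 16.9, 19 and 21.1 CPM against 2.02, 1.88 and 2.40 CPM (3.17 ± 0.14). Adam15 was at 68.2, 88.7 and 86.8 CPM against 15.6, 17.4 and 14.7 CPM (2.35 ± 0.11). Adam17, the related sheddase, was at 139, 146 and 146 CPM against 81.3, 97.2 and 104 CPM (0.61 ± 0.083). The tetraspanin genes Tspan14 and Tspan17 were higher too, and Tspan33 was lower. Adam8 and Adam19 were lower in CD4-CD8- cells (-1.89 ± 0.11 and -1.49 ± 0.13).

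Growth factor receptors, lipid genes and complement genes were mostly higher in KO CD4-CD8- cells. Of 22 receptors, 14 were higher, 4 lower (Met, Ifngr1, Kit and Flt3) and 4 not passed. Csf1r, the receptor of the macrophage growth factor, was at 536, 528 and 632 CPM against 9.84, 8.99 and 13.4 CPM (5.72 ± 0.19, adjusted p = 1.61e-12). Csf3r, the receptor of G-CSF, was at 16.9, 14.1 and 14.6 CPM against 0.0652, 0.0697 and 0.260 CPM (6.75 ± 0.32). Il2rg, the common gamma chain, was at 431, 394 and 399 CPM against 44, 37.6 and 44.2 CPM (3.28 ± 0.094). Of 21 lipid genes, 14 were higher and 5 lower. Lpl, lipoprotein lipase, was at 151, 257 and 372 CPM against 2.74, 1.67 and 3.96 CPM (6.53 ± 0.35). Lrp1, a receptor for lipoproteins, was at 177, 187 and 229 CPM against 3.78, 2.79 and 7.92 CPM (5.34 ± 0.31). Of 20 complement and scavenger genes, 15 were higher and 1, Timd4, lower. C3, the central complement component, was at 305, 248 and 256 CPM against 3.72, 1.25 and 3.77 CPM (6.52 ± 0.29). Axl, a receptor for apoptotic cells, was at 169, 226 and 223 CPM against 4.24, 5.51 and 11.8 CPM (4.84 ± 0.32).

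Cell cycle genes were mostly on the CD8+ side: 32 of 37 were lower in KO CD4-CD8- cells, 4 higher and 1 not passed, with a median of -0.88. Cdk1, the kinase that drives mitosis, was at 11.3, 8.06 and 8.89 CPM against 33.6, 26 and 27.5 CPM (-1.62 ± 0.22, adjusted p = 1.09e-05). Ube2c and Ccnb2, both of mitosis, differed by -1.54 ± 0.22 and -1.48 ± 0.26, and in both the first KO CD8+ library was the highest. Mki67, the proliferation marker Ki-67, was at 28.1, 21.5 and 30.4 CPM against 65.1, 44.3 and 59.8 CPM (-1.08 ± 0.20). Mcm5, a helicase subunit of DNA replication, was at 102, 91.9 and 94.5 CPM against 163, 151 and 175 CPM (-0.76 ± 0.10). The 4 that were higher were E2f2 and the D cyclin genes Ccnd1, Ccnd2 and Ccnd3. Ccnd2 was at 44.8, 19.1 and 24.1 CPM against 13.7, 4.67 and 9.35 CPM (1.67 ± 0.40). Ccnd1 lost its call without the first KO CD8+ library (0.25, adjusted p = 0.105) and without the second KO CD4-CD8- library (0.32, adjusted p = 0.0537). On unfiltered TPM, 21 of the cell cycle genes were called lower. Of 30 interferon-stimulated genes, 18 were higher, 1, Ifi44, lower and 11 not passed, with a median of 0.98. Rtp4, a receptor-transporting protein, was at 26.7, 25.5 and 16.9 CPM against 0.652, 0.139 and 0.714 CPM (5.48 ± 0.33). Oasl2, of the oligoadenylate synthetase-like family, was at 45.6, 28.4 and 34.2 CPM against 3.39, 2.02 and 3.90 CPM (3.53 ± 0.27).

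**Figure D3:**
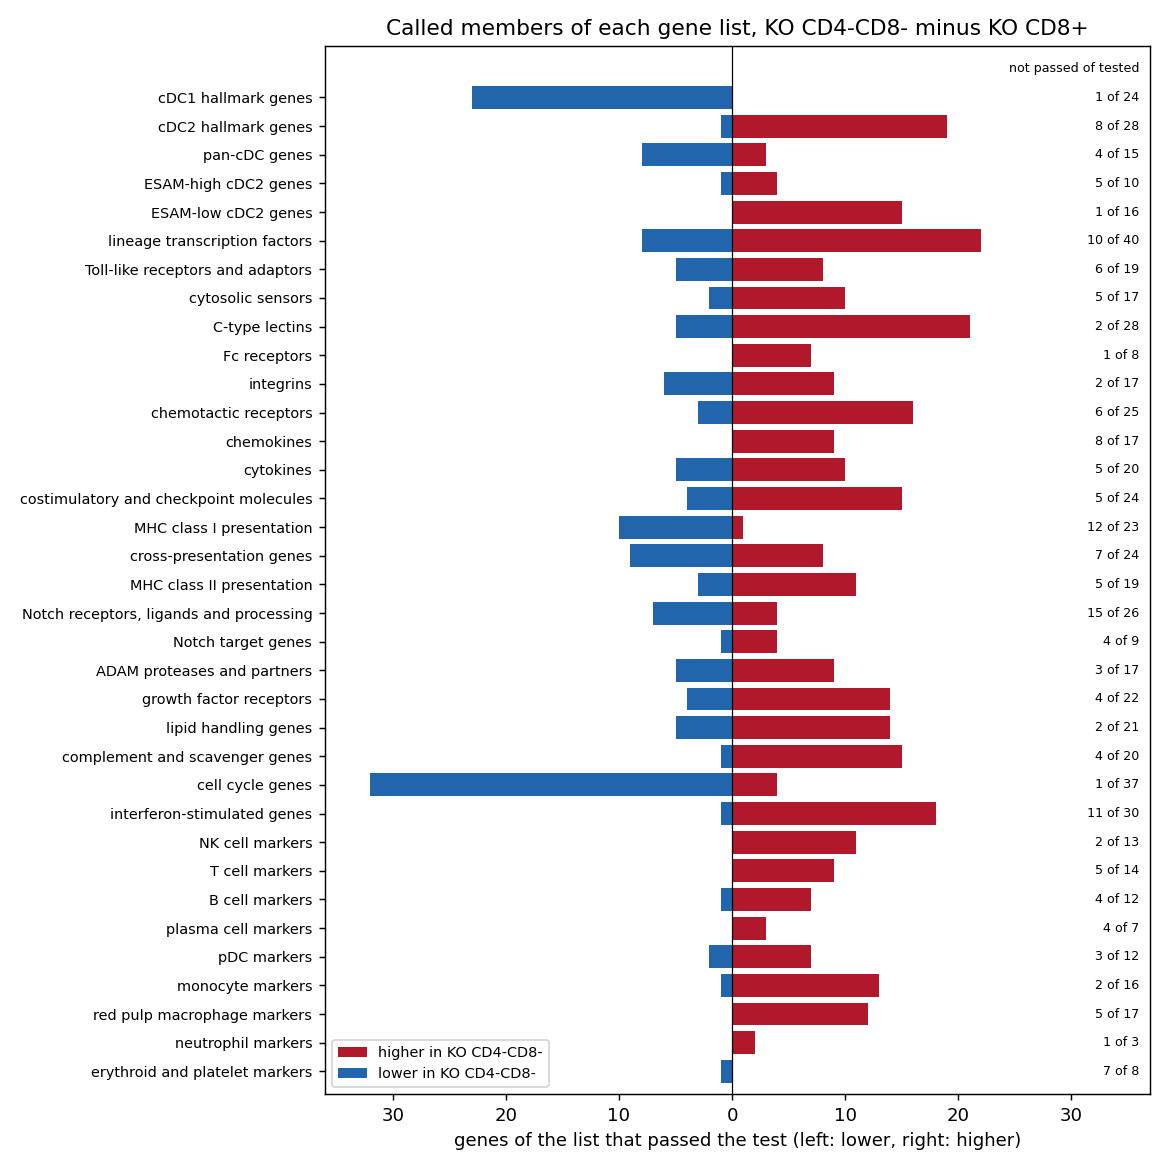
For each of 35 gene lists, bars to the right count the members called higher and bars to the left those called lower in KO CD4-CD8- than in KO CD8+ cells, with the number not passed of those tested at the right edge. The longest bars to the left are the 32 cell cycle genes and the 23 cDC1 hallmark genes, and 22 lineage transcription factors and 21 C-type lectins stand on the right.

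Markers of NK, T and B cells were mostly higher in KO CD4-CD8- cells, while the sums of plasma cell markers overlapped. Called were 84.6% of the NK, 64.3% of the T, 66.7% of the B and 42.9% of the plasma cell markers. Over all genes tested the share was 46.7%. Of 13 NK cell markers, 11 were higher in KO CD4-CD8- cells and 2 not passed, with summed levels of 151 to 241 CPM against 81.8 to 120 CPM. Ncr1, the NK receptor NKp46, was at 15.7, 3.15 and 2.91 CPM against 0.326, 0 and 0.0649 CPM, highest in the first CD4-CD8- library, and the count was 7 without that library. Of 14 T cell markers, 9 were higher, with sums of 38.8 to 90.2 CPM against 9.62 to 25.5 CPM, and 5 without the third KO CD4-CD8- or the second KO CD8+ library. Cd3e was at 3.74, 2.07 and 9.73 CPM against 0.587, 0.139 and 1.49 CPM, and lost its call on TPM with a pseudocount of 1. Of 12 B cell markers, 7 were higher and Ms4a1, which encodes CD20, was lower (a call lost on TPM and without the second KO CD8+ library, -0.72), with sums of 348 to 423 CPM against 334 to 343 CPM. On TPM with a pseudocount of 1, 3 of them were called higher. Ighm, the IgM heavy chain, was at 266, 296 and 321 CPM against 317, 310.4 and 300.1 CPM and did not pass. Of 7 plasma cell markers, 3 were higher and 4 did not pass, with sums of 96.4 to 117 CPM against 108 to 125 CPM. In WT cells the NK sums reached 403 to 904 CPM in CD4-CD8- and 92.4 to 170 CPM in CD8+ libraries and the T cell sums 313 to 548 CPM and 39.1 to 80.9 CPM. The part of these cells in the differences of Klrb1a and Gm44511 was not tested.

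Monocyte and macrophage markers overlap with genes that cDC2 express. Of 16 monocyte markers, 13 were higher, Treml4 was lower and 2 did not pass, with sums of 10409 to 14324 CPM against 2386 to 3157 CPM. Lyz2, lysozyme of myeloid cells, was at 6131, 8402 and 8623 CPM against 827, 1021 and 915 CPM (3.07 ± 0.14). Of 17 red pulp macrophage markers, 12 were higher and 5 did not pass, with sums of 696 to 841 CPM against 64.2 to 102 CPM. Adgre1, which encodes F4/80, was at 192, 205 and 254 CPM against 4.56, 3.28 and 6.56 CPM (5.49 ± 0.20). The 5 that did not pass were Hmox1, Slc40a1, Cd5l, Mertk and Marco, and the iron exporter gene Slc40a1 was at 1.25, 4.14 and 6.13 CPM and 2.67, 3.14 and 9.55 CPM. Of 12 neutrophil markers only 3, Csf3r, Mmp8 and Cxcr2, had enough counts to be tested. These 3 summed to 16.0 to 18.1 CPM in CD4-CD8- and 0.913 to 1.39 CPM in CD8+ libraries. Most of the CD4-CD8- sum was Csf3r, which is also in the list of ESAM-low cDC2. Of 8 erythroid and platelet markers 1, the globin gene Hba-a1, was lower in CD4-CD8- cells, and its call was lost in DESeq2 (-1.23, adjusted p = 0.0693) and without the first or the second KO CD4-CD8- library (-1.34 and -0.82) and without the first or the third KO CD8+ library (-1.17 and -1.02). The part of monocytes and macrophages in the differences of Fn1, F13a1, Fcrls, Lyz2 and C3 was not tested.

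The same comparison in WT cells called 5735 genes (42.9%), 2928 (21.9%) higher and 2807 (21%) lower in CD4-CD8- cells. On TPM with a pseudocount of 1, 72.4% of the WT calls were higher, beside 51.1% on counts, with the median of all genes at 0.15. Called in the same direction in both genotypes were 3964 genes, which are 63.5% of the KO calls and 69.1% of the WT calls. In 149 genes the 2 genotypes had called differences of opposite direction. Across all 13369 genes the log2 fold changes of KO and WT had a Pearson correlation of 0.70, with genes that are not independent of each other. Of the 24 cDC1 hallmark genes, 24 were lower in WT CD4-CD8- cells, with a median of -2.89.

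Whether the subset difference itself depended on the genotype was tested as an interaction, the KO difference minus the WT difference. It was called for 1767 genes (13.2%), 1104 (8.26%) above and 663 (4.96%) below zero. On TPM with a pseudocount of 1 the count was 961, and the share above zero 44.5% in place of 62.5%. Among the 1767 genes, 476 differed in the same direction in both genotypes with the larger difference in KO, and 166 with the smaller one. Another 618 were called in KO and not in WT, 348 in WT and not in KO, 149 in opposite directions and 10 in neither.

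**Figure D4:**
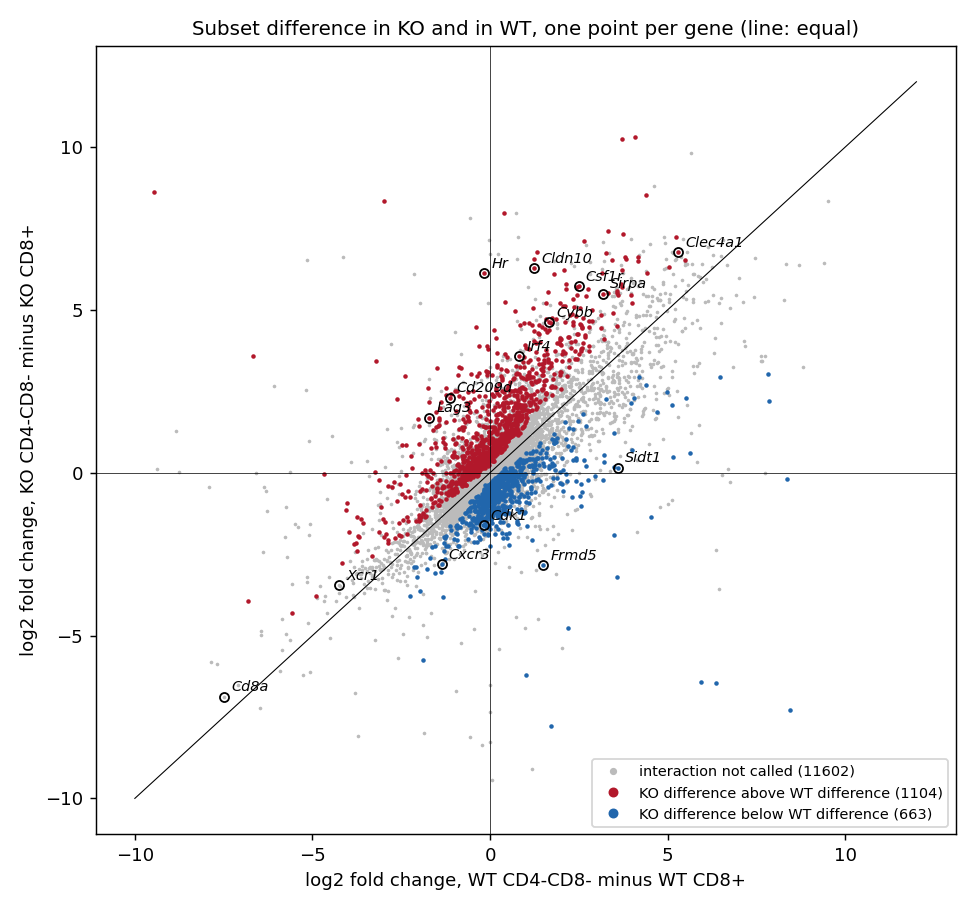
Each point is a gene, with the log2 fold change of CD4-CD8- against CD8+ cells in WT on the horizontal axis and in KO on the vertical axis, and a line where both are equal. Red points (1104) have a called KO difference above the WT difference and blue points (663) one below it, and Irf4, Sirpa, Csf1r and Cybb lie above the line while Cdk1, Cxcr3 and Frmd5 lie below it.

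Several cDC2 genes were further apart in KO, and some of them were lower in KO CD8+ than in WT CD8+ cells. Of the 28 cDC2 hallmark genes, 13 had a called interaction above zero and 3 below. Their summed level was 7810 to 8501 CPM in KO CD4-CD8- and 4163 to 4839 CPM in WT CD4-CD8- libraries. In CD8+ libraries the sums of the genotypes overlapped, at 1341 to 1718 CPM in KO and 1473 to 1779 CPM in WT. Irf4 was at 8.21, 10.1 and 13.8 CPM in KO CD8+ and at 55.9, 40.4 and 69 CPM in WT CD8+ libraries, with no overlap (-2.36 ± 0.19, adjusted p = 3.05e-07). Between the CD4-CD8- populations of KO and WT it differed by 0.38 ± 0.16 (adjusted p = 0.101). Its subset difference was 3.57 ± 0.19 in KO and 0.82 ± 0.17 in WT, and the interaction 2.74 ± 0.25 (adjusted p = 2.78e-06). Csf1r was at 9.84, 8.99 and 13.4 CPM in KO CD8+ and 71.8, 56.7 and 92.3 CPM in WT CD8+ libraries (-2.77 ± 0.17), with an interaction of 3.22 ± 0.23 (adjusted p = 3.05e-07). Sirpa was at 64.9, 61.5 and 87 CPM in WT CD8+ libraries, above the KO values given before, with an interaction of 2.32 ± 0.25. Cx3cr1, Cybb and Zeb2 had interactions of 3.91 ± 0.29, 2.96 ± 0.30 and 2.86 ± 0.34. Tmem176a, a membrane protein gene of cDC2, was at 1079, 1167 and 1104 CPM and 43.2, 44.5 and 52.2 CPM in KO, and at means of 506 ± 65.6 CPM and 155 ± 18.8 CPM in WT (SD, n = 3), with an interaction of 2.87 ± 0.15. The C-type lectins had 13 of 28 interactions above zero, led by Clec10a (4.13 ± 0.34) and Cd209a (3.66 ± 0.36). Both were higher in KO than in WT CD4-CD8- cells, with means of 501 against 63.8 TPM for Clec10a and 699 against 257 TPM for Cd209a. In CD8+ cells the KO and WT means were 5.77 and 11.9 TPM for Clec10a and 12.2 and 52.6 TPM for Cd209a.

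Genes listed for pDC differed in direction between the genotypes. In KO, 7 of 12 were higher in CD4-CD8- cells, 2 lower and 3 not passed, with a median of 1.07. In WT, 1 was higher and 6 lower, with a median of -0.95, and 7 interactions were called above zero. Lag3, an MHC class II-binding checkpoint receptor, was at 93.2, 102 and 97 CPM and 32.6, 26.1 and 32.2 CPM in KO CD4-CD8- and CD8+, and at 46.5, 38.7 and 36.6 CPM and 124, 102 and 172 CPM in WT libraries (interaction 3.39 ± 0.22, adjusted p = 1.15e-07). The order of the populations was thus reversed with no overlap in either genotype. Cd209d had the same reversal, with a KO difference of 2.31 ± 0.29 and a WT difference of -1.14 ± 0.27 (adjusted p = 0.00267). Spib was higher in CD4-CD8- cells of both genotypes, by 3.92 ± 0.21 in KO and 0.99 ± 0.19 in WT. Summed over the list, levels were 842 to 1007 CPM in KO CD4-CD8-, 270 to 363 CPM in KO CD8+, 466 to 586 CPM in WT CD4-CD8- and 552 to 813 CPM in WT CD8+ libraries. Siglech, the surface marker of pDC, did not pass in KO, at 18.7, 17.8 and 25.2 CPM and 23.7, 14.4 and 29 CPM, and was lower in CD4-CD8- cells in WT (-1.10 ± 0.28). The part of pDC in these differences was not tested.

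The cell cycle difference of the KO cells also depended on the genotype. In WT, 5 of 37 genes were higher and 3 lower in CD4-CD8- cells, with a median of -0.043, and 26 interactions were called below zero. Cdk1 was at 14.4, 16.2 and 17.4 CPM in WT CD4-CD8- and 16.9, 19.4 and 18.2 CPM in WT CD8+ libraries, between the 2 KO groups, with an interaction of -1.44 ± 0.30 (adjusted p = 0.0043). Mki67 had WT means of 43.7 ± 8.33 CPM and 40.5 ± 3.66 CPM (SD, n = 3) and an interaction of -1.19 ± 0.28. The lists of MHC class II presentation and costimulation, with 19 and 24 genes tested, had 11 and 12 interactions above zero, with 1 and 2 below. Over all genes tested, 8.26% were called above and 4.96% below zero. H2-Aa differed by 0.37 ± 0.067 in KO and -0.068 ± 0.066 in WT (interaction 0.44 ± 0.094), and Ccr7 by 1.09 ± 0.22 and -0.48 ± 0.22 (interaction 1.58 ± 0.31).

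**Figure D5:**
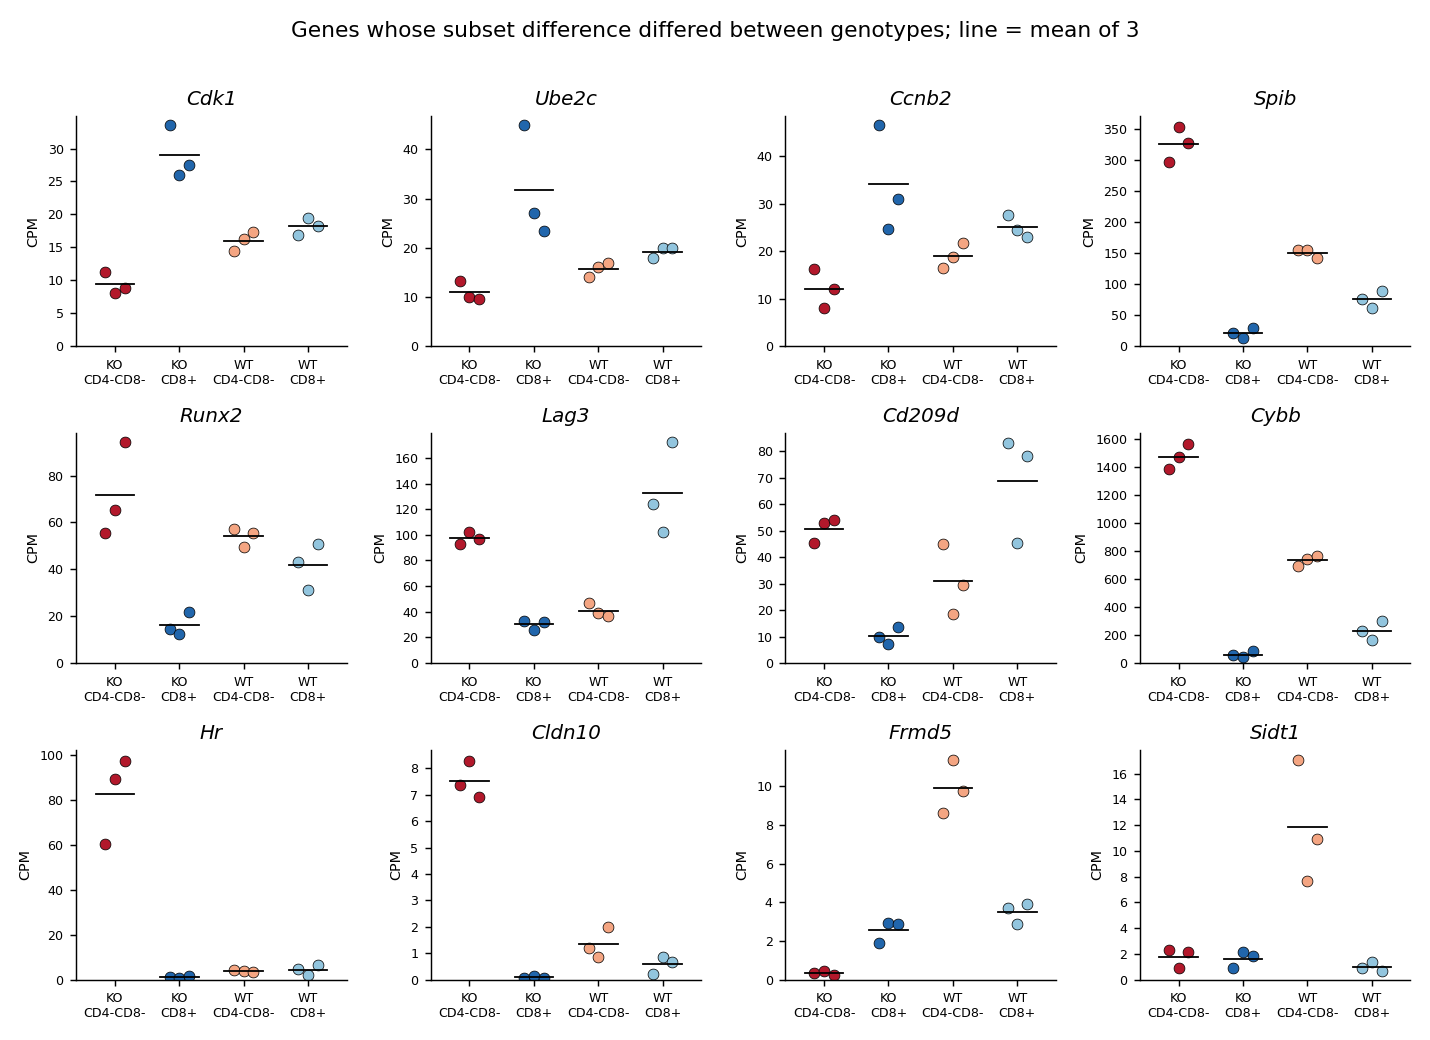
CPM of 12 genes with their libraries in the KO and WT groups, each panel with a linear axis from 0 and a line at the group mean. Cdk1 is highest in KO CD8+ libraries, Spib and Cybb are lowest there, and Lag3 and Cd209d exchange order between KO and WT. Hr is high in KO CD4-CD8- libraries and low in the other 3 groups shown. KO CD4+ libraries, which are not shown, also held Hr.

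Among single genes, the interaction took both signs. Hr, the nuclear corepressor hairless, was at 60.7, 89.4 and 97.7 CPM in KO CD4-CD8-, 1.11, 0.697 and 1.69 CPM in KO CD8+ and at means of 3.95 ± 0.582 CPM and 4.44 ± 2.22 CPM in the WT populations (SD, n = 3), with an interaction of 6.29 ± 0.46 (adjusted p = 4e-07). Cldn10, a tight junction claudin, was at 7.35, 8.29 and 6.90 CPM in KO CD4-CD8- and below 1 CPM in every KO CD8+ library (5.04 ± 0.68). Neither gene was particular to KO CD4-CD8- cells. In KO CD4+ cells of the series, means were 14.1 ± 2.01 TPM for Hr and 3.14 ± 0.127 TPM for Cldn10 (SD, n = 3). In KO CD4-CD8- cells they were 9.30 ± 2.29 and 2.90 ± 0.224 TPM. Frmd5 was lower in CD4-CD8- cells in KO, at 0.356, 0.460 and 0.230 CPM against 1.89, 2.93 and 2.86 CPM, and higher in WT, at 8.64, 11.3 and 9.78 CPM against 3.72, 2.86 and 3.93 CPM (-4.34 ± 0.35), although its KO call was lost on TPM with a pseudocount of 1. Sidt1 was higher in CD4-CD8- cells in WT (3.59 ± 0.50) and did not pass in KO (0.15 ± 0.48), and the interaction was -3.44 ± 0.69 (adjusted p = 0.00296).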

How the data were processed

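Poly(A) RNA of sorted spleen dendritic cells was sequenced single-end on an Illumina HiSeq, per the labels' protocols. Tools named in the submitters' processing notes are Salmon 0.14.1 and FastQC 0.11.8, with the build GRCm38. The authors deposited 2 tables per transcript, one of estimated counts, which need not be whole, and one of TPM. The count table holds 117135 transcripts. Gene names came from the TPM table and, for 37 transcripts, from GENCODE M21, and 115 transcripts without a name (at most 0.160% of a library) were left out. Estimated counts were summed per gene name and rounded to whole numbers.

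Genes passing edgeR's filterByExpr (13369 of 24590) were tested with edgeR 4.0.16 (R 4.3.3) by the quasi-likelihood F test, with TMM scaling and 1 mean per group over all 18 libraries, 12 residual degrees of freedom, and Benjamini-Hochberg adjustment over all genes tested. All tests are two-sided. Counting intervals are exact at 95%, the floor for a group at 0 is 3 counts over its 3 libraries, and both cover counting error only. Gene lists are described by counts and medians, without a test. Named by rule were Adam10, the 15 largest called differences in each direction (at least 5 CPM in the higher group, no overlap), the 6 largest interactions in each direction, up to 4 called members of each list, and preset lineage genes. Members, lists and this rule were chosen with earlier results of these data known. Any other gene given with values was chosen after its values were seen. Some list members are not reported here by name. The scripts were tested on simulated data.

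Libraries of the same replicate number deviated together within a genotype: deviations from the group means correlated at 0.41, 0.42 and 0.44 between the 2 KO populations and at 0.22, 0.21 and 0.35 between the WT ones. The labels do not say what a number shares. Alternatives were other size factors, no filter, DESeq2 1.42.0, limma 3.58.1 on log2 of the deposited TPM plus a pseudocount of 1 or 0.1, a replicate block, fewer groups in the fit, and leaving out each library. A block within genotype and TPM scaled by TMM were added after seeing the data.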

Additional observations from a re-analysis of the deposited data

Results flagged for a closer look

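A difference between CD4-CD8- and CD8+ cells that depended on the genotype, by the interaction test of edgeR, singled out 12 genes, the 6 largest in each direction that reached 5 CPM in a group. Above zero were Gm2981 (18.08 on the log2 scale), Gm44511 (6.526), Hr (6.287), Galnt9 (6.214), Cldn10 (5.043) and Cyp7b1 (4.899). Gm2981 is a processed pseudogene at 2.37, 0 and 7.28 CPM in KO CD4-CD8- and 0 in all KO CD8+ libraries, with overlapping groups, so its fitted value is no measure of size. Gm44511 and Galnt9 were also at 0 in all KO CD8+ libraries, so their fitted values are no measure of size either. In WT CD4-CD8- and CD8+ cells, means were 7.30 and 0.548 CPM for Gm44511 and 1.35 and 0.0729 CPM for Galnt9. KO against WT in CD4-CD8- cells was 0.43 ± 0.50 for Gm44511 (edgeR adjusted p = 0.592) and 2.92 ± 0.30 for Galnt9 (6.6e-06). Cyp7b1, an oxysterol hydroxylase, was at 3.97, 2.07 and 0.996 CPM in KO CD4-CD8- and 0.913, 0.279 and 0.260 CPM in KO CD8+ libraries (adjusted p of the interaction = 0.00233). Its order was reversed in WT, with means of 1.14 CPM in CD4-CD8- and 7.13 CPM in CD8+ cells. KO against WT was -3.85 in CD8+ cells. Its KO call was lost on unfiltered TPM (0.55), without the first KO CD4-CD8- library (1.64) and without the second or the third KO CD8+ library (2.00 and 1.97).

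Below zero were Hist1h2ap (-6.959), Cdh17 (-5.405), Podnl1 (-4.803), Frmd5 (-4.34), Btbd11 (-3.568) and Sidt1 (-3.441). Hist1h2ap belongs to the multi-copy histone genes, and its KO CD8+ libraries were at 90.7, 91.4 and 0 CPM, so libraries of 1 group disagreed, and the division of its reads among copies is uncertain. Cdh17, a cadherin of NOTCH2-dependent cDC2, was at 0.534, 0 and 0.0766 CPM and 0.391, 0.697 and 1.56 CPM in KO and at 12, 18.9 and 9.13 CPM and 1.17, 0.859 and 1.51 CPM in WT CD4-CD8- and CD8+ libraries (adjusted p = 0.000976). Between the KO populations it did not pass, but it was called with DESeq2 (-1.98), without a filter (-1.92) and without the first KO CD4-CD8- or the first KO CD8+ library (-4.26 and -2.27). Podnl1 was at 1.25, 0.460 and 0.613 CPM and 0, 0.209 and 0.0649 CPM in KO and at 8.34, 6.29 and 7.38 CPM and 0, 0 and 0.0756 CPM in WT libraries (adjusted p = 0.044). Btbd11 was at 1.30, 0.614 and 1.30 CPM and 1.56, 2.30 and 2.73 CPM in KO and at 7.91, 4.90 and 5.18 CPM and 1.38, 1.36 and 0.302 CPM in WT libraries (adjusted p = 0.00723). Some interaction calls were lost in alternatives. Hist1h2ap lost it with DESeq2, the replicate block and TPM (-6.97, -6.56 and -6.13), and without any of 9 of the 12 libraries. Podnl1 lost it with the block within genotype (-4.90) and without any of 9 libraries. Gm44511 lost it on TPM with a pseudocount of 1 (1.03, limma adjusted p = 0.302) and without any of 6 libraries, with adjusted p from 0.05 to 0.101. Galnt9 lost it without the second WT CD8+ library (5.34, adjusted p = 0.129), and Sidt1 on TPM with a pseudocount of 0.1 (-2.28, adjusted p = 0.161).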

How the results depend on the processing

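The number of genes called between the KO populations was 6242. It was 3885 on TPM with a pseudocount of 1, 3987 with 0.1, 3863 without a filter and 4158 after TMM scaling, of which 1384, 1388, 1386 and 1952 were lower in CD4-CD8- cells. The interaction count of 1767 became 961, 774, 960 and 1051 under the same settings, with 428, 409, 410 and 589 above zero, and 365 below zero with a pseudocount of 0.1. In WT, 3796 genes were called on TPM after TMM scaling, and 1096, 1065, 1193 and 1799 were lower across the 4 TPM settings. Adam10 between the KO populations was 0.4951 with the replicate block, 0.482 with a block within genotype (edgeR adjusted p = 0.000128), 0.4925 on the compared groups only (0.00949) and 0.498 with both (0.00719), each now called. Notch1 turned its sign on TPM, at -2.5008 (limma adjusted p = 0.0111), -3.0967 (0.0197) with a pseudocount of 0.1, -2.5008 (0.0272) without a filter and -2.6217 (0.00833) after TMM scaling. Leaving out each library gave 5488 to 6127 genes between the KO populations (2892 to 3161 higher and 2563 to 2966 lower), 1331 to 1723 interactions (844 to 1105 above and 471 to 618 below zero), 4819 to 5329 WT genes, and 0.4008 to 0.5781 for Adam10. The replicate block gave 6507, 1992 and 6004 calls, and between the KO populations changed the call of no gene named by the rule except Adam10 and Rbpj. The causes of these changes were not tested. Of 164 named genes besides Adam10, 146 kept direction and call between the KO populations in every alternative run, 15 lost the call or turned in at least 1, and 3 only gained it. Of 70 list counts, 22 moved by over 1.5 times in some alternative.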
